A study of Mus musculus with 12 samples.

Results

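The nuclear genes of oxidative phosphorylation were taken as every protein-coding gene of the deposited expression table whose symbol begins with Nduf followed by a, b, c, s or v and a digit, with Uqcr, with Cox4 to Cox8, or with Atp5. Counting each Ensembl gene once, this gave 80 genes of 38310. By their roles, 35 belong to complex I, 8 to complex III, 20 to complex IV and 15 to ATP synthase (complex V). Ndufa4 and Ndufa4l2 carry a complex I name and were counted with complex IV, where the NDUFA4 protein is now placed. The remaining 2, Atp5s and Atp5sl, carry an ATP synthase name and are not subunits of it. The rule itself used symbols and the protein-coding label and no measured value, though earlier results of these data were known.

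Oxidative phosphorylation passes electrons from NADH and succinate along protein complexes in the inner mitochondrial membrane, and these complexes pump protons across it. Complex I takes electrons from NADH, complex III passes them from ubiquinone to cytochrome c, complex IV hands them to oxygen, and ATP synthase uses the returning protons to make ATP. Most subunits are encoded in the nucleus and a few in mitochondrial DNA, so both sets of transcripts are needed to build a complex. Mouse embryonic stem cells, the cells studied here, are known to draw on both glycolysis and respiration.

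Expression was measured by RNA sequencing in 12 libraries of mouse embryonic stem cells in 4 groups. The KO group (4 libraries) lacked Smad1 and Smad5, genotype Smad1/5 -/-, and the FL group (2 libraries) carried the floxed genes, Smad1/5 fl/fl. SMAD1 and SMAD5 are the transcription factors that carry a BMP signal to the nucleus. KO and FL cells shared a mixed CD-1, 129/Ola and C57Bl/6 background and grew in 2i + Lif on gelatin, where 2i is a pair of inhibitors of MEK and GSK3. They came from 2 parental lines, each giving 1 FL and 2 KO samples, and the labels do not say which library came from which line. The BRE-positive group (3 libraries) and the BRE-negative group (3 libraries) were subpopulations of a BRE-GFP line, in which a BMP-responsive element drives GFP. All BRE-GFP cells were of a mixed CBA and C57Bl/6 background, grew in FCS + Lif on feeders, and were sorted by flow cytometry on SSEA1, a stem cell surface antigen, and GFP. Each BRE-positive sample was collected together with a BRE-negative one, at 3 different times. P-values therefore measure the spread between these libraries, and KO libraries of the same parental line may vary less than separate lines would.

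Library totals were 25862573 to 37319846 counts, of which the 80 genes held 0.854% to 1.13%, and 3 counts corresponded to 0.0804 to 0.116 CPM before scaling. Counts were scaled to CPM, counts relative to the library total, with TMM factors. Stem cell markers were high in every library: the 9 markers, among them Pou5f1, Sox2 and Nanog, summed to 4053 to 5142 CPM. The 15 feeder fibroblast markers summed to 547 to 688 CPM in KO, 518 to 523 CPM in FL, 1419 to 1817 CPM in BRE-positive and 1315 to 1656 CPM in BRE-negative libraries, and Fn1, which stem cells also express, made up most of this. Smad1 was at 14.5, 17.4, 13.5 and 12.3 CPM in the KO libraries, against 19.1 and 18.0 CPM in the FL libraries, and Smad5 at 29.8, 25.1, 32.4 and 34.6 CPM in KO, against 33.7 and 31.3 CPM in FL. Neither difference passed edgeR's quasi-likelihood test (adjusted p = 0.187 for Smad1 and 0.719 for Smad5). These are counts over whole genes, which take in exons outside a deleted part, so they do not check the genotype.

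Summed over all 80 genes, the deposited level in TPM, a level per transcript length and library total, was 12415 ± 492 in KO (SD, n = 4), 11871 ± 392 in FL (n = 2), 10013 ± 848 in BRE-positive (n = 3) and 10101 ± 278 in BRE-negative libraries (n = 3). The 2i cultures were thus above the feeder cultures on this scale. The summed CPM of complex I genes was 2330 ± 78.6 in KO, 2230 ± 41.7 in FL, 2074 ± 98.0 in BRE-positive and 2193 ± 50.1 in BRE-negative libraries. For complex III it was 1065 ± 32.2 in KO, 1000 ± 1.61 in FL, 793 ± 40.3 in BRE-positive and 873 ± 29.8 in BRE-negative libraries. For ATP synthase it was 5602 ± 240 in KO, 5315 ± 51.6 in FL, 4311 ± 242 in BRE-positive and 4768 ± 207 in BRE-negative libraries. Complex IV genes summed to 2024 ± 102 CPM in KO, 1825 ± 45.0 in FL, 1666 ± 84.4 in BRE-positive and 1806 ± 63.4 in BRE-negative libraries. In complexes I and IV the sums of FL and BRE-negative thus differed by less than 1 SD. CPM sums are not divided by length, high genes weigh most in them, and opposite differences can cancel. In complex IV, the log2 fold change of FL over BRE-negative was -0.71 for Cox4i1 and 1.05 for Cox7b.

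**Figure D1:**
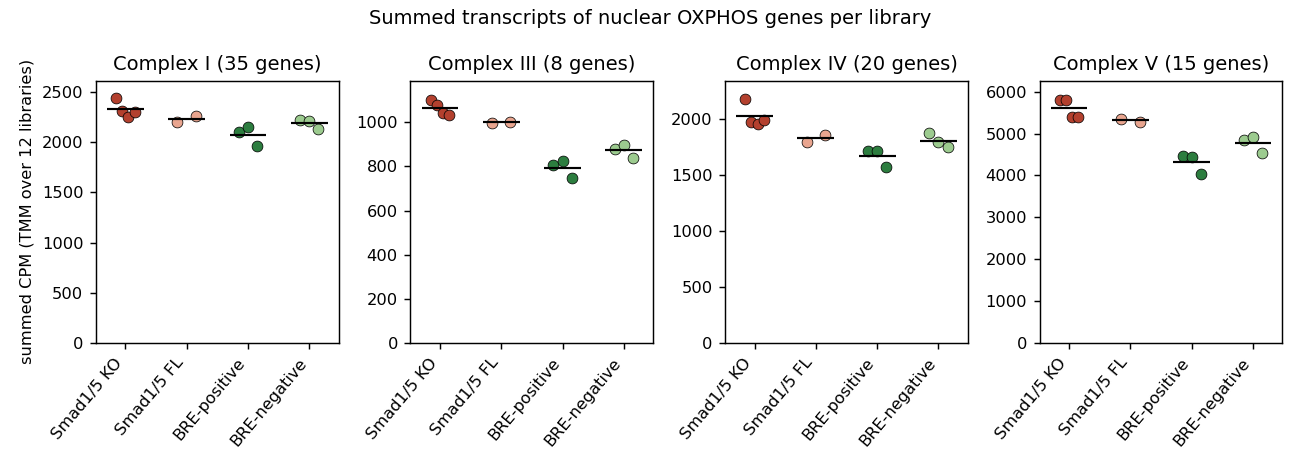
Summed CPM (TMM over 12 libraries) of the nuclear genes of complexes I, III, IV and V, with 1 point per library and a line for the mean of the KO, FL, BRE-positive and BRE-negative groups. The BRE-positive libraries have the lowest group mean in each complex, and FL and BRE-negative libraries lie close together in complexes I and IV.

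Levels of different genes can be compared only per transcript length. The length implied by the deposited TPM was more than 2 times that of the gene's principal mRNA for 43 of the 80 genes, so TPM was recomputed from the counts over the principal mRNA. On this recomputed scale the catalytic beta and alpha subunits of ATP synthase led, with Atp5b at 2072 TPM and Atp5a1 at 1198 TPM on average over the 12 libraries. Cox4i1, the ubiquitous form of complex IV subunit 4, followed at 944 TPM. On the deposited scale the highest genes of complexes I, III, IV and V were Ndufb9, Uqcrfs1, Cox8a and Atp5b. The rank correlation between the scales over the 80 genes was 0.787, a description of genes that share libraries.

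Where complex IV has alternative subunits, the common form was the high one in these cells. Cox4i1 ranged from 692 to 1162 recomputed TPM over the 12 libraries, and Cox4i2, its lung form, from 0.296 to 3.46. Cox6a1 ranged from 355 to 432, and the heart and muscle form Cox6a2 from 0 to 0.461. Cox7a2 ranged from 321 to 381, and the muscle form Cox7a1 from 24.2 to 51.2. Cox6b1 averaged 361 and Cox6b2, known from testis, 66.8, so this testis form was not near the floor of detection. Cox8a averaged 497, Cox8c had at most 3 counts in a library and Cox8b had 0 counts in all 12, which allows up to 0.0804 to 0.116 CPM by counting error alone. Ndufa4 averaged 394 and its hypoxia-induced relative Ndufa4l2 9.51, with a range of 1.91 to 35.5. The 3 genes for the identical c subunit of the ATP synthase ring were unequal, with Atp5g3 at 583, Atp5g2 at 63.1 and Atp5g1 at 27.1 recomputed TPM. The order of the last 2 rests on mRNA lengths of 731 and 4715 bases, since Atp5g1 had 47.1 to 86.3 CPM and Atp5g2 17.2 to 31.2 CPM. Processed copies of many of these genes exist in the genome, and how reads were shared with them was not tested.

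Promoter windows of 300 bases, 250 before and 50 after the transcription start, were taken from RefSeq (GRCm38.p6) and matched 66 of the 80 genes in 72 windows. The letters of 6 motifs were searched on both strands, most of them of factors known from respiratory gene promoters. NRF1 (GCGCATGC) was in 12.5% of the windows of these genes and 2.71% of all 32851 windows. ETS (CCGGAAG) was in 19.4% and 8.86%, YY1 (AAGATGGCG) in 12.5% and 1.403%, the E-box CACGTG in 12.5% and 7.15%, the ERR motif TCAAGGTCA in 1.39% and 0.423%, and TATAAA in 11.1% and 13.6%. These windows were richer in G and C, with a median of 57.2% against 52.7% of all windows, and a match is a description of letters only. Printed here are the windows of the 3 X-linked genes that were higher in FL than in BRE-negative samples (Ndufa1, Ndufb11 and Cox7b), none of which holds any of the 6 motifs. They are followed by those of Atp5k and Ndufs7, both higher in FL than in BRE-negative samples. Atp5k is among 9 genes with the NRF1 motif, holds it on both strands in overlap, and also has the ETS motif. Ndufs7 has the YY1 motif and also TATAAA, which is left in lower case. Some other genes with the NRF1 motif did not pass between FL and BRE-negative, and Atp5sl, with the YY1 motif, was lower in FL. A link between motif and change was not tested. Capitals mark matches to NRF1, ETS and YY1, read 5′ to 3′ along the gene's strand. The windows lie at chrX:37191189-37191488 (Ndufa1, minus strand), chrX:20617570-20617869 (Ndufb11, minus strand), chrX:106015450-106015749 (Cox7b, plus strand), chr5:108434350-108434649 (Atp5k, minus strand) and chr10:80249199-80249498 (Ndufs7, plus strand). The Ndufa1 window lies wholly outside the coordinates given below for that gene, which come from another annotation, GENCODE. Its lack of the motifs therefore holds for the RefSeq start only.
Ndufa1: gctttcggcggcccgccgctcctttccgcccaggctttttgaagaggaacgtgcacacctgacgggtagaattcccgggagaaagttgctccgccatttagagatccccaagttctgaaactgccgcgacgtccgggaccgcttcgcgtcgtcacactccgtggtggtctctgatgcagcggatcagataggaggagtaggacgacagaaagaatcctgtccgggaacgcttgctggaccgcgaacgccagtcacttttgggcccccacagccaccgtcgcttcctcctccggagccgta
Ndufb11: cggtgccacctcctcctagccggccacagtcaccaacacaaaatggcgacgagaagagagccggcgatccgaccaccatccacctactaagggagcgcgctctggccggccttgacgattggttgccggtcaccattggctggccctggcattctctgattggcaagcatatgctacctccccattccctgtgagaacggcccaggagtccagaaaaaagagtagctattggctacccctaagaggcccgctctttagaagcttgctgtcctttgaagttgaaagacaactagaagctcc
Cox7b: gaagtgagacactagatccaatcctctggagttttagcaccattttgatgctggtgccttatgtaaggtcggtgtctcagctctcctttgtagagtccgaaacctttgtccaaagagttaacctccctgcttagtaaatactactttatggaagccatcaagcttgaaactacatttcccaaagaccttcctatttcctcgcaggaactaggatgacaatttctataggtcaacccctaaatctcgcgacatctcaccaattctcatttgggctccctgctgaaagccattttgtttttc
Atp5k: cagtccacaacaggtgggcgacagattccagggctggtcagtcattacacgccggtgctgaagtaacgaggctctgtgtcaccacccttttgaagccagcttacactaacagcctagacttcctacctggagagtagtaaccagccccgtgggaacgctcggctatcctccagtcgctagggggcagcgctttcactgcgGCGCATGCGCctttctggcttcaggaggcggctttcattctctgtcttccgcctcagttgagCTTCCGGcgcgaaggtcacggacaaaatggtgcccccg
Ndufs7: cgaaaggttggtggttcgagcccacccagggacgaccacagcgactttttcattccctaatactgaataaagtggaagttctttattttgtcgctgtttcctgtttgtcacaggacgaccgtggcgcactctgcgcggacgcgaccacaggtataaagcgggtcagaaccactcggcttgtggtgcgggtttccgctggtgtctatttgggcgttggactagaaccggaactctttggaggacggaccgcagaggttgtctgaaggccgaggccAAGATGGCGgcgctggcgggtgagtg

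In the KO against FL comparison, which asks what loss of SMAD1 and SMAD5 changes in 2i culture, the nuclear respiratory genes moved little. Of 77 genes with enough counts to test, 1 was higher in KO and 0 were lower by edgeR's quasi-likelihood test (adjusted p below 0.05, 1.30% of them). Of all 15933 genes 5.03% passed, 1.85% higher and 3.18% lower. DESeq2 called 5 higher and 0 lower, with 9.4% of all genes called, and limma on TPM called 0, with 3.12% and 2.18% of all genes called at its 2 pseudocounts. At an unadjusted p below 0.05, which 22.9% of all genes reached, edgeR had 15 higher and 2 lower. Most values leaned the same way by a small amount: 62 of 77 log2 fold changes were positive (80.5%, against 51.7% of all genes), with a median of 0.08 against 0.01 for all genes. By complex the median was 0.06 for I, 0.07 for III, 0.17 for IV and 0.11 for ATP synthase. The size of the lean differed between libraries, with medians of 0.15, 0.07, 0.05 and 0.06 for KO 1 to 4 against the FL mean.

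The called gene was Cox7a2l (ENSMUSG00000024248, chr17:83501918-83517330, minus strand), whose protein joins complexes III and IV into supercomplexes. It was at 125, 113, 114 and 112 CPM in the KO libraries, against 82.6 and 93.4 CPM in the FL libraries. All 4 KO libraries lay above both FL libraries, a 1.32-fold difference (log2 fold change 0.40 ± 0.08 SE, edgeR adjusted p = 0.0345). Among fits that each left out a KO library, the call held in that without KO 1, where 5.4% of all genes passed. Without KO 2, KO 3 or KO 4 the edgeR adjusted p was 0.0538, 0.0835 and 0.0823. In those fits 3.43%, 1.51% and 1.36% of all genes passed. Without FL 1 or FL 2, which leaves 1 FL library, the log2 fold change was 0.31 and 0.47.

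Of the 77 genes, 29 were higher in every KO library than in both FL libraries and 3 were lower, together 41.6% against 34.6% of all genes. Those with the next lowest adjusted p, named after their values were seen, spanned several complexes and did not pass the test. Ndufb9, an accessory subunit of complex I, had 106, 98.4, 95.4 and 97.9 CPM in KO, against 75.9 and 84.1 CPM in FL (log2 fold change 0.31 ± 0.07, edgeR adjusted p = 0.0533). Cox6c, a small complex IV subunit, had 218, 218, 207 and 208 CPM in KO, against 170 and 185 CPM in FL (0.26 ± 0.06, adjusted p = 0.0592). Atp5g3, the main c subunit gene here, had 264, 292, 274 and 278 CPM in KO, against 234 and 236 CPM in FL (0.24 ± 0.06, adjusted p = 0.0733). In each of these the KO libraries stood above both FL libraries. In a fit with offsets for mRNA length and base composition, 9 genes were higher and 0 lower, with a median log2 fold change of 0.15. In that fit 8.22% of all genes passed, and their median moved by 0.08.

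Larger differences were seen in alternative subunit forms at low levels, and these did not pass the test. Ndufa4l2 (ENSMUSG00000040280, chr10:127514967-127517154, plus strand) had 4.91, 4.87, 0.906 and 1.62 CPM in KO, against 16.9 and 7.68 CPM in FL (log2 fold change -2.00 ± 0.60, edgeR adjusted p = 0.101). Every KO library was below both FL libraries, but the KO libraries themselves fell into a higher and a lower pair and FL 1 was more than 2 times FL 2. Without the count filter Ndufa4l2 passed, with an adjusted p of 0.0306. Cox7a1 had 6.87, 7.94, 5.66 and 4.98 CPM in KO, against 10.3 and 8.49 CPM in FL (-0.56 ± 0.20, adjusted p = 0.156). Cox4i2 rested on 4 to 20 counts a library and overlapped between the groups. Cox7b2, known from testis, had 0.269, 2.15, 0.989 and 1.16 CPM in KO, against 0.442 and 0.730 CPM in FL (0.96 ± 0.68, adjusted p = 0.432), also with overlap.

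**Figure D2:**
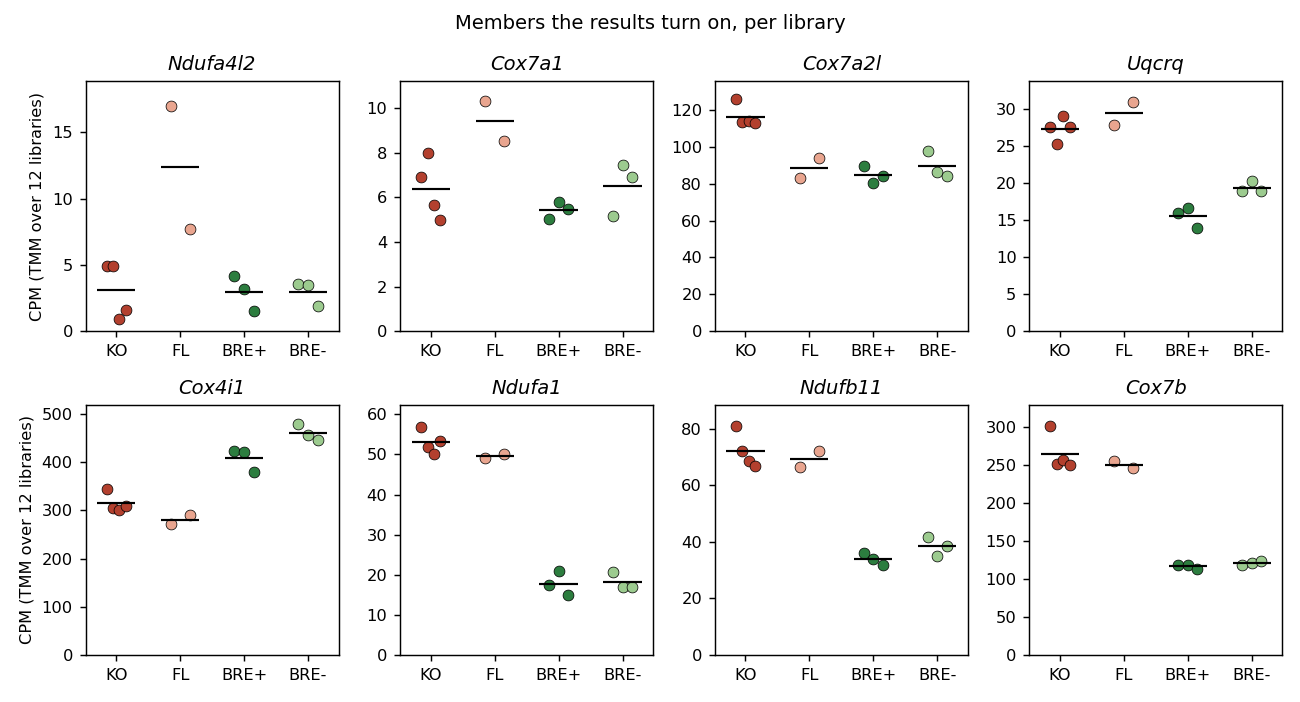
CPM (TMM over 12 libraries, axis from 0) in each library, grouped as KO, FL, BRE-positive and BRE-negative, for Ndufa4l2, Cox7a1, Cox7a2l, Uqcrq, Cox4i1, Ndufa1, Ndufb11 and Cox7b, with 1 point per library and a line for the group mean. Cox7a2l is higher in all 4 KO libraries than in both FL libraries, Ndufa4l2 is lower in them, and the 3 X-linked genes are higher in KO and FL than in either BRE group.

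Among related genes, none of the 47 tested assembly factors, 18 genes of the citric acid cycle and 4 complex II subunits passed the edgeR test between KO and FL. Nor did any of 8 carriers and 4 genes of a cytochrome c list. That list held Cycs, Cyct, Hccs and Cyc1, the last a complex III subunit that the symbol rule does not match. Of 13 tested transcriptional regulators of mitochondrial genes, 1 passed: Myc had 7.40 ± 2.04 CPM in KO (SD, n = 4) and 3.10 ± 0.0896 CPM in FL (n = 2), with a log2 fold change of 1.26 ± 0.28 and an adjusted p of 0.0442. The mitochondrially encoded subunits summed to 5086, 5918, 7364 and 6676 CPM in KO, against 5091 and 4868 CPM in FL. Their median log2 fold change was 0.53, with 0 of 7 called. Of the 13 listed, mt-Co2, mt-Co3, mt-Atp6, mt-Atp8 and mt-Nd4l had at most 0.0983 CPM in any of the 12 libraries. These counts therefore do not measure the whole set, and mt-Co1, at 3710 to 5809 CPM, made up most of each sum. Markers differed too: the stem cell markers summed to 4053 to 5023 CPM in KO, against 5048 to 5142 CPM in FL, with Nanog the 1 of 8 tested that passed (log2 fold change -0.60 ± 0.06, adjusted p = 0.00613). Of 9 feeder markers tested, 1 was lower in KO (Loxl1), and Postn was at 0 CPM in all 4 KO libraries, against 0 and 0.0814 CPM in FL. The part of these differences in the values above was not tested.

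In BRE-positive against BRE-negative cells, the pair of sorted populations that differ in BMP reporter activity, the values of the nuclear respiratory genes leaned slightly below those of BRE-negative samples, nearly all without passing the test. Of 76 genes tested, 1 was lower and 0 were higher by edgeR with the collection pair as a block (1.32%). Of all 15435 genes 2.97% passed, 1.96% higher and 1.02% lower. DESeq2 called 0, with 2.73% of all genes called, and limma 0, with 0.0848% and 0.111%, too few for its count to bear on these genes. At an unadjusted p below 0.05, which 18.3% of all genes reached, edgeR had 26 lower and 0 higher. The log2 fold change was negative for 66 of 76 genes (86.8%), with a median of -0.10, where 49.7% of all genes were positive and the median was -0.00. In 41 genes the value was lower in all 3 pairs and in 1, Ndufa5, it was higher, together 55.3% against 39.9% of all genes.

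The lean was of like size in each complex, with medians of -0.08 for complex I, -0.13 for III, -0.09 for IV and -0.13 for ATP synthase. By pair the median was -0.10, -0.04 and -0.16, with 58, 55 and 68 of 76 genes lower. The summed level was 9133, 9171 and 8349 CPM in BRE-positive samples, against 9879, 9873 and 9298 CPM in their BRE-negative partners, lower in 3 of 3 pairs. In deposited TPM it was 9185, 10879 and 9976 in BRE-positive samples, against 9810, 10365 and 10129 in BRE-negative ones, so the second pair turned. The median over these genes was -0.01 in limma on log2(TPM + 1), a scale on which the median of all genes was higher by 0.09.

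The called gene was Uqcrq (ENSMUSG00000044894, chr11:53427922-53430831, minus strand), a small subunit of complex III known as its ubiquinone-binding protein. It was at 16.0, 16.7 and 14.1 CPM in BRE-positive samples, against 18.8, 20.2 and 19.1 CPM in BRE-negative samples. The groups did not overlap, a 1.24-fold difference (log2 fold change -0.31 ± 0.08, edgeR adjusted p = 0.0461). The call ended without pair 2 (adjusted p = 0.0831) or pair 3 (0.417), under offsets for length and GC content (0.0547), in DESeq2 (0.143) and in limma (0.158). The next lowest adjusted p-values, for genes named after their values were seen, belonged to 2 ATP synthase genes and a core subunit of complex I. Atp5j2, the f subunit, had 104, 114 and 97.1 CPM in BRE-positive samples, against 121, 127 and 110 CPM in BRE-negative samples (-0.18 ± 0.05, adjusted p = 0.0760). Ndufs8, an iron-sulfur subunit, had 40.2, 45.7 and 40.5 CPM in BRE-positive samples, against 52.0, 50.1 and 45.4 CPM in BRE-negative samples (-0.22 ± 0.06, adjusted p = 0.0767). Atp5e, the epsilon subunit of ATP synthase, had 65.4, 68.9 and 60.4 CPM in BRE-positive samples, against 74.2, 74.9 and 72.9 CPM in BRE-negative samples (-0.19 ± 0.06, adjusted p = 0.0844). All 3 genes were lower in all 3 pairs. The highest gene, Atp5b, was at 1979, 1896 and 1828 CPM in BRE-positive samples, against 2124, 2114 and 2016 CPM in BRE-negative samples (-0.13 ± 0.05, adjusted p = 0.176).

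Leaving out pair 1 gave 22 lower genes of 76, where 14.4% of all genes passed in either direction. Leaving out pair 2 or pair 3 gave 0, where 2.56% and 1.28% of all genes passed. Without the count filter 10 were lower, where 4.02% of all genes passed in either direction. Among alternative subunit forms, Ndufa4l2 had 4.22, 3.20 and 1.58 CPM in BRE-positive samples, against 3.55, 3.50 and 1.92 CPM in BRE-negative samples (log2 fold change -0.01 ± 0.16, adjusted p = 0.976).

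These are short transcripts, and short transcripts as a whole had a median below 0 in this comparison. Of the 76 genes, 70 lay in the shortest of 4 equal classes of protein-coding genes by mRNA length, 63 to 1928 bases. All 3414 genes of that class had a median log2 fold change of -0.06, with 15 higher and 65 lower, and the 70 had a median of -0.11. In the longest class the median was 0.06, with 180 higher and 14 lower. The part of length in the lean was not tested beyond the offsets for length and GC content, under which the median over these genes was -0.08 and 0 were called.

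**Figure D3:**
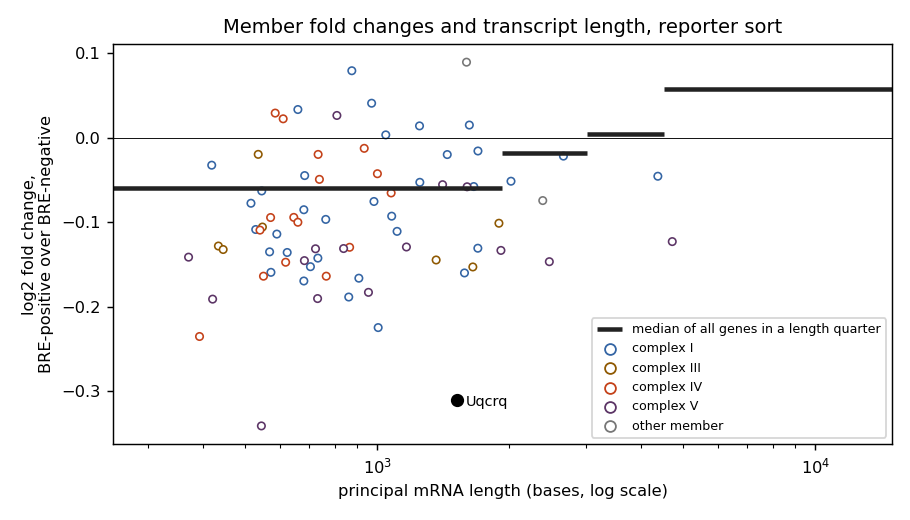
Log2 fold change of BRE-positive over BRE-negative samples (vertical axis) against principal mRNA length in bases (log axis) for the 76 genes tested, with the median of all protein-coding genes in each of the 4 length classes as lines. Most points lie below 0 at the short end, where the all-gene median is -0.06, and Uqcrq is the called gene.

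Of the 15 feeder markers, 4 were lower in BRE-positive samples, and their sum was 1419 to 1817 CPM in BRE-positive and 1315 to 1656 CPM in BRE-negative samples, most of it Fn1. The median log2 fold change of the list was -0.41, the same sign as the lean of the respiratory genes, and its part in that lean was not tested. The mitochondrially encoded subunits with enough counts to test went the other way from the nuclear ones. Of these 8, 5 were higher and 0 lower, against 1.96% higher and 1.02% lower of all genes, with a median of 0.33. The largest was mt-Nd2, a complex I subunit (log2 fold change 0.52 ± 0.05, edgeR adjusted p = 0.000295). The sum of the mitochondrially encoded list, most of it mt-Co1, was 7892, 6911 and 7650 CPM in BRE-positive samples, against 6503, 6147 and 6582 CPM in BRE-negative samples. None of the 47 assembly factors, 18 citric acid cycle genes and 4 complex II subunits tested passed. Nor did any of the 4 genes of the cytochrome c list, 8 carriers and 13 regulators tested.

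**Figure D4:**
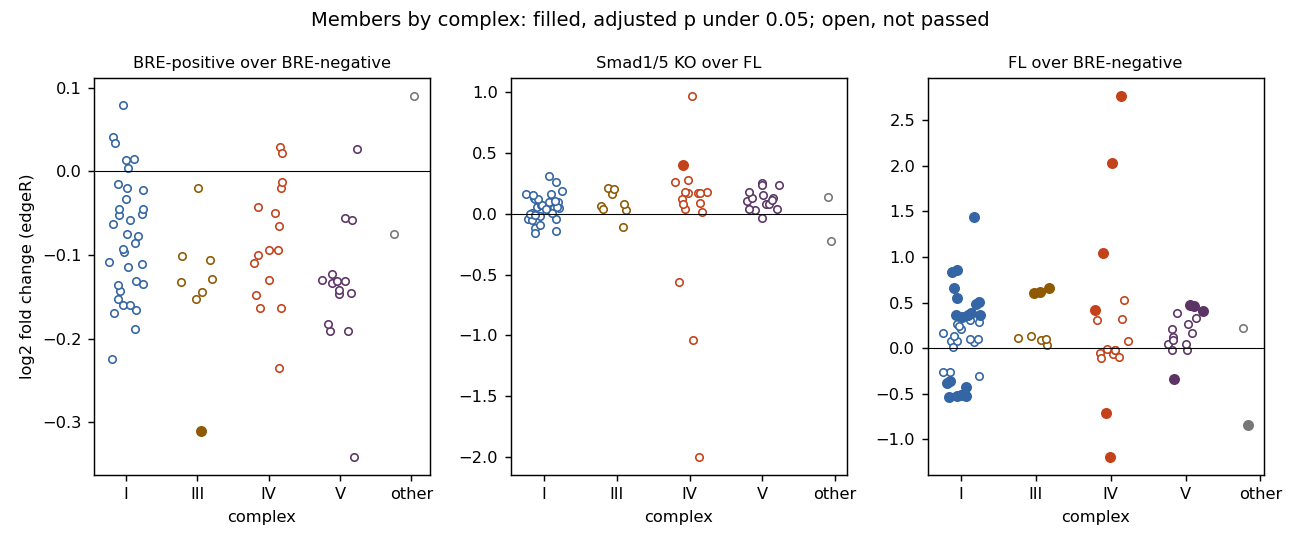
Log2 fold change of each tested gene by complex, in separate panels for BRE-positive over BRE-negative, KO over FL, and FL over BRE-negative; filled points have an edgeR adjusted p below 0.05 and each panel has its own scale. The first 2 panels hold 1 filled point each, Uqcrq and Cox7a2l, and the last holds 33.

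FL against BRE-negative sets the 2i culture of the floxed lines beside the feeder culture of the reporter line. Line, strain, medium, feeders and sorting all differ between them and cannot be told apart. This comparison shares the FL libraries with KO against FL and the BRE-negative libraries with the reporter comparison, so the values are given side by side and not set against each other. Of 77 genes tested, 22 were higher and 11 lower in FL (42.9%). Of all 16360 genes 45.7% passed, 23.4% higher and 22.3% lower, so the share was near the background. At an unadjusted p below 0.05, which 53.8% of all genes reached, 27 were higher and 12 lower, and 58 did not overlap between the groups (75.3%, against 67.4%). The log2 fold change was positive for 54 of 77 (70.1%, against 50.3% of all genes), with a median of 0.13. With offsets for length and GC content the split turned to 11 higher and 28 lower, with a median of -0.15, while 48.8% of all genes passed and their median moved by -0.05. By complex, 12 were higher and 7 lower of 35 in complex I, 3 and 0 of 8 in III, 4 and 2 of 17 in IV, and 3 and 1 of 15 in ATP synthase. With the FL 1 library left out 14 genes passed, against 27.2% of all genes, without FL 2 10 passed, against 28.3%, and without BRE-negative 3 21 passed, against 36.3%.

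The X chromosome was higher as a whole: its 617 tested genes had a median log2 fold change of 1.01 in FL, with 420 higher and 26 lower. All 3 X-linked respiratory genes rose too. Ndufa1 (chrX:37187588-37191163), a small membrane-arm subunit of complex I, had 49.5 and 50.6 CPM in FL, against 20.9, 17.1 and 17.2 CPM in BRE-negative samples (2.72-fold, log2 fold change 1.44 ± 0.13, edgeR adjusted p = 8.78e-05), 0.44 above the chromosome's median. Cox7b (chrX:106015700-106022450), a small complex IV subunit, had 256 and 249 CPM in FL, against 119, 121 and 126 CPM in BRE-negative samples (1.05 ± 0.10, adjusted p = 0.000126), 0.04 above that median. Ndufb11 (chrX:20615326-20617619), a complex I subunit, had 67.0 and 73.2 CPM in FL, against 42.1, 35.2 and 39.1 CPM in BRE-negative samples (0.85 ± 0.12, adjusted p = 0.000680), 0.15 below it. The FL libraries did not overlap the BRE-negative libraries in any of the 3. The Y-linked gene Eif2s3y had 1 and 0 counts in FL, against 10, 43 and 45 counts in BRE-negative libraries, in which the feeder marker Postn was at 1.11, 9.21 and 10.6 CPM. Whether these Y-linked reads came from the reporter line or from feeders was not tested, and copy number was not measured.

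Chromosomes 1, 8 and 14 were lower as a whole, with medians of -0.50, -0.46 and -0.54, and 435 of 916, 402 of 857 and 293 of 541 genes lower. Of 8 respiratory genes on chromosomes 1 and 8, 6 were lower and 0 higher, and there was none on 14. Cox4i1 (ENSMUSG00000031818, chr8:120668222-120674207, plus strand) had 273 and 293 CPM in FL, against 483, 459 and 452 CPM in BRE-negative samples, with no overlap (1.64-fold, log2 fold change -0.71 ± 0.12, adjusted p = 0.00135), 0.26 below the chromosome's median. Ndufs1, the largest core subunit of complex I, had 195 and 202 CPM in FL, against 253, 316 and 282 CPM in BRE-negative samples (-0.51 ± 0.13, adjusted p = 0.0114), 0.01 below the median of chromosome 1. The other 4, the complex I accessory subunits Ndufa10, Ndufb3, Ndufa13 and Ndufb7, fell by 0.36 to 0.52 and stood -0.06 to 0.13 from their chromosome's median. Of these 6, Cox4i1 held in 5 of 5 fits that left out a library, and the other 5 each lost the call without FL 1 and without FL 2.

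**Figure D5:**
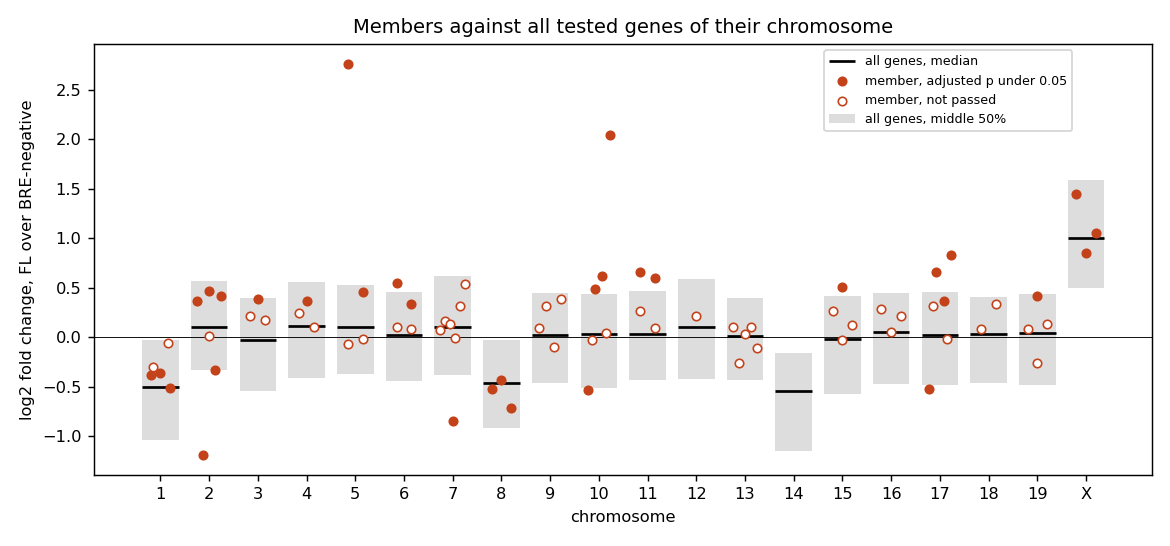
Log2 fold change of FL over BRE-negative by chromosome: for all tested genes the median (mark) and the middle 50% (bar), with the nuclear respiratory genes as points, filled where the edgeR adjusted p is below 0.05. The X chromosome stands above 0 with a median of 1.01 and chromosomes 1, 8 and 14 below it, and the respiratory genes on X, 1 and 8 lie on the same side as their chromosome.

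On the remaining chromosomes 19 of 66 genes were higher and 5 lower (36.4%, against 42.3% of all genes there), a split chosen after the data had been seen. The largest rises among the genes with at least 1 log2 CPM included 3 subunits of complex III. Uqcr10 had 118 and 111 CPM in FL, against 77.2, 68.7 and 71.3 CPM in BRE-negative samples (log2 fold change 0.66 ± 0.11, adjusted p = 0.00150). Uqcr11 (0.62 ± 0.12, adjusted p = 0.00389) and Uqcrq (0.60 ± 0.13, adjusted p = 0.00551) also rose in complex III. Uqcrq lost its call without FL 2 (0.53, adjusted p = 0.0666) and with offsets for length and GC content (0.33, adjusted p = 0.0593). In complex I, Ndufv3 rose by 0.83 ± 0.15, Ndufb10 by 0.66 ± 0.11 and Ndufa5 by 0.55 ± 0.20, the last losing its call in 4 of 5 fits that left out a library. Its log2 fold change was 0.26 without FL 2 and 0.15 with the offsets (adjusted p = 0.435 and 0.532). Uqcr10, Uqcr11, Ndufv3 and Ndufb10 kept theirs in 5 of 5.

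Ndufa4l2 was higher in FL, with 17.1 and 7.80 CPM, against 3.59, 3.52 and 1.93 CPM in BRE-negative samples (4.10-fold, log2 fold change 2.04 ± 0.37, adjusted p = 0.00239). The FL libraries differed from each other by more than the BRE-negative ones did, and with FL and KO pooled against both BRE groups it no longer passed (1.04 ± 0.53, adjusted p = 0.0946). Cox7b2 rested on 15 and 27 counts in FL, against 1, 2 and 5 counts in BRE-negative samples, too few for a stable fold change. In all, 5 genes outside chromosomes 1 and 8 fell. Atp5sl, known as a factor in building the membrane arm of complex I, had 21.9 and 21.9 CPM in FL, against 41.2, 41.7 and 35.1 CPM in BRE-negative samples (-0.84 ± 0.13, adjusted p = 0.00117). Ndufa12 and Ndufa7, accessory subunits of complex I, fell by 0.53 ± 0.15 and 0.52 ± 0.11, Atp5e, the epsilon subunit of ATP synthase, by 0.33 ± 0.11, and Cox4i2 by 1.19 ± 0.40 on 20 and 13 counts in FL. Of 5 fits that left out a library, Atp5sl kept its call in 5, Ndufa7 in 3, Ndufa12 in 2, and Atp5e and Cox4i2 in 1 each, and against BRE-positive samples Atp5e did not pass (-0.14, adjusted p = 0.308). Atp5b, the highest gene, did not pass, with 2040 and 2092 CPM in FL, against 2152, 2127 and 2027 CPM in BRE-negative samples.

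Feeder markers and mitochondrial transcripts also differed in this comparison. Of 15 feeder markers, 14 were lower in FL, with sums of 518 to 523 CPM in FL and 1315 to 1656 CPM in BRE-negative libraries; Postn was at 0 and 0.0814 CPM in FL. Of the mitochondrially encoded subunits with enough counts to test, 7 of 8 were lower and 0 higher, against 22.3% lower of all genes. Their median log2 fold change was -0.76. The part of either in the values above was not tested, and in bulk RNA fewer cells of a type and less RNA per cell cannot be told apart. Of 47 assembly factors tested, 15 were higher and 9 lower, near the 45.7% of all genes that passed. Among the higher were Cox17, a copper chaperone for complex IV (log2 fold change 1.36 ± 0.15, adjusted p = 0.000217), and Coa4 (1.65 ± 0.22, adjusted p = 0.000490). Among the lower were Lyrm7 (-1.05 ± 0.28, adjusted p = 0.0145) and Bcs1l (-0.76 ± 0.17, adjusted p = 0.00659), which both act in building complex III, and Cox20 (-0.96 ± 0.22, adjusted p = 0.00700), the last 2 on chromosome 1.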

How the data were processed

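RNA of 12 mouse embryonic stem cell libraries was sequenced from rRNA-depleted total RNA with a strand-preserving kit, per the labels' protocols. The authors deposited raw counts for 39179 Ensembl genes and a table of TPM, a normalised signal. The submitters' processing notes name the aligner STAR 2.4.1d, featureCounts 1.4.6, DESeq2 1.6.3, FastQC 0.11.3, CASAVA 1.8.2 and the builds GRCm38.p4 and mm10. No strand setting or annotation release is given in the sources used here, so overlapping genes may share reads. As inferred from the values, the deposited TPM equals (count + 1) over a length, scaled to a fixed total over the 38310 unique genes, and the 80 genes fill 88 entries of that table, each used once. The recomputed TPM used GENCODE M21 principal transcripts on GRCm38, which also gave gene coordinates.

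Counts were tested with edgeR 4.0.16 in R 4.3.3 (TMM, filterByExpr with a minimum count of 10 and total of 15, quasi-likelihood F test, Benjamini-Hochberg over all genes tested, threshold 0.05). The reporter comparison carried the collection pair as a block, which the labels give: deviations of same-numbered libraries from their group means correlated at 0.712, 0.589 and 0.529. The other comparisons had none. The filter left out Cox6a2, Cox8b and Cox8c throughout and Cox7b2 in the reporter comparison. SE is the log2 fold change over the square root of F. Alternatives used DESeq2 1.42.0, limma 3.58.1 on log2(TPM + 1) and log2(TPM + 0.1), other filters and scalings, all 12 libraries, offsets for length and GC content by splines, and each library left out. The code was tested on simulated data.

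Named by rule were the called genes with the 10 largest rises and falls per comparison at a mean log2 CPM of at least 1, the highest gene of each complex by deposited TPM, alternative subunit forms, and up to 3 called genes of each related list. Any other named gene was picked with its values in view. The genes and lists were chosen with earlier results of these data known.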

Additional observations from a re-analysis of the deposited data

Results flagged for a closer look

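In 6 of the 77 genes examined, a single KO library stood apart from the other 3 by Dixon's test (gap over range above 0.829 for 4 samples), where chance marks about 1 in 20 groups. KO 1 was the high library in 5 of them. Ndufa3, a complex I subunit, was at 38.2 CPM there and 30.7 to 31.9 CPM in the other KO libraries. Cox6b1 was at 149 CPM in KO 1 and 126 to 128 CPM in the others. Cox7a2l was at 125 CPM in KO 1 and 112 to 114 CPM in the others. Cox7b was at 299 CPM in KO 1 and 249 to 255 CPM in the others. Atp5h, the d subunit of ATP synthase, was at 97.5 CPM in KO 1 and 83.6 to 84.6 CPM in the others. Ndufa9 was low in KO 3, at 100.03 CPM, with 107 to 108 CPM in the others.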

How the results depend on the processing

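For BRE-positive against BRE-negative, where 1 gene was called, 0 were called with DESeq2, with limma, and with the replicate block and offsets for length and GC content. In these fits 2.73%, 0.0848% or 0.111%, and 1.92% of all genes passed. With all 12 libraries in a single fit, and with no replicate block, 0 of all genes passed. The 0 calls there do not bear on these genes. With no count filter 10 were called, where 4.02% of all genes passed. Leaving out each pair gave 0 to 22, where 1.28% to 14.4% of all genes passed. For KO against FL, with 1 called, DESeq2 called 5, no count filter 2, limma 0 and offsets 9. In these fits 9.4%, 4.37%, 3.12% or 2.18%, and 8.22% of all genes passed. Leaving out each KO library gave 0 to 1, where 1.36% to 5.4% of all genes passed. For FL against BRE-negative, with 33 called, FL and KO against both BRE groups gave 58, where 67.7% of all genes passed, and leaving out each library gave 10 to 35, where 27.2% to 51.7% of all genes passed. RLE scaling and a filter at 1 CPM moved none of these counts by over 1.5 times. The added settings without X-linked genes, and without genes on chromosomes 1, 8, 14 and X, were chosen after seeing the data and gave 30 and 24.

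The replicate number as a block gave 0 calls for KO against FL, where 0 of all genes passed, and 18 for FL against BRE-negative. Same-numbered libraries correlated at 0.263 and -0.424 in KO against FL and at -0.0252 and -0.0312 in FL against BRE-negative. With 2 FL libraries, the deviations of FL 1 and FL 2 mirror each other. These values therefore cannot settle whether libraries are paired. KO 1 and KO 2 correlated with FL 1 at 0.263 and 0.424, and KO 3 and KO 4 with FL 2 at 0.407 and 0.362. Whether these sets match the 2 parental lines was not tested, and the KO against FL fit carried no block for line.

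Summed levels were 11049 CPM in KO, 10397 in FL, 8884 in BRE-positive and 9683 in BRE-negative libraries, and 19371 TPM in KO, 18530 in FL, 16482 in BRE-positive and 16821 in BRE-negative libraries over principal mRNA lengths, a scale added after seeing the data. In FL against BRE-negative the sign turned for Cox6b1 (-0.0052 to 0.25) and Cox7a2l (-0.016 to 0.29) with FL and KO against both BRE groups. With offsets it turned for Ndufa4 (0.08 to -0.43) and Atp5g3 (0.41 to -0.0063). Of these genes only Atp5g3 had been called, the others starting near 0, and the cause was not tested. Over all settings and named genes the call and sign were kept in 492 of 574 values for FL against BRE-negative. They were kept in 270 of 284 for KO against FL and 211 of 228 for BRE-positive against BRE-negative. In these 2 comparisons 1 of 19 named genes was called, so most kept values are genes that stayed uncalled. They do not measure how stable the calls were: Cox7a2l and Uqcrq each lost theirs in 8 settings, some of which called 0 of all genes. The median SE on the log2 scale was 0.06 for BRE-positive against BRE-negative, 0.08 for KO against FL and 0.12 for FL against BRE-negative, which limits what a single gene can show.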

Other observations

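Related lists held calls between FL and BRE-negative cultures at shares to be read against the 45.7% of all genes that passed. Of 18 citric acid cycle genes, 6 were higher and 3 lower in FL by edgeR, near that share. The largest rises were in 2 X-linked enzymes, Idh3g (log2 fold change 1.26 ± 0.10, adjusted p = 4.99e-05) and Pdha1 (0.93 ± 0.11, adjusted p = 0.000283). Of 8 mitochondrial carriers, 4 were higher and 1 lower. The ADP/ATP carrier gene Slc25a5, also on X, was 2.64-fold higher in FL (adjusted p = 6.55e-05), its germ cell form Slc25a31 was 5.29-fold higher (adjusted p = 0.00247), and Ucp2, an uncoupling protein gene, rose by 1.88 ± 0.13 (adjusted p = 2.29e-05).

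Of the 4 genes of the cytochrome c list, 2 were higher and 0 lower in FL. Cyct, the testis form, had a mean of 47.6 CPM in FL and 2.15 CPM in BRE-negative samples, 22.4-fold higher in FL (log2 fold change 4.49 ± 0.38, edgeR adjusted p = 5.84e-05). Hccs, the X-linked gene of the enzyme that attaches haem to cytochrome c, rose by 0.67 ± 0.12 (adjusted p = 0.00240), and the other 2 genes of the list did not pass. Of 13 regulators, Esrra (0.67 ± 0.15, adjusted p = 0.00593) and Nrf1 (0.36 ± 0.11, adjusted p = 0.0311) were higher in FL, and 4 were lower, with Myc (-2.48 ± 0.30, adjusted p = 0.000337) and Tfb2m (-1.07 ± 0.17, adjusted p = 0.00134) the furthest. Of 4 complex II subunits, Sdhc on chromosome 1 was lower (-0.43 ± 0.14, adjusted p = 0.0373).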
